A study of Mus musculus with 8 samples.

Results

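Mature oligodendrocytes make, besides the proteins of the myelin sheath, a set of proteins for iron supply, pH and acetate metabolism, lipid carriage and coupling between cells. The expression of 9 such genes was examined here in the striatum: *Trf*, *Car2*, *Apod*, *Aspa*, *Ptgds*, *Gsn*, *Qdpr*, *Gjb1* and *Klk6*. They were chosen by name, with earlier results of these data known, and are 9 of the 55032 genes in the deposited table. All 9 had enough counts to be tested, as did 18294 genes in all. Striatum RNA of females at postnatal day 60 (P60) was sequenced, 4 WT and 4 16p11.2+/-, with 1 library per mouse. The mice are labelled C57BL/6, and the 16p11.2+/- mice (DF in the mouse names) carry a heterozygous deletion of the mouse segment that corresponds to human 16p11.2. The deletion is present in every cell of the animal, so no cell type is singled out by the genotype. The study addressed myelin in this model, and the comparison here asks how support genes of the same cells differ between the genotypes.

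Oligodendrocytes wrap axons with myelin and are rich in iron. Transferrin carries iron, carbonic anhydrase II interconverts carbon dioxide and bicarbonate, and aspartoacylase splits N-acetylaspartate from neurons into aspartate and acetate, which can be used for lipid synthesis. Gap junction channels connect oligodendrocytes with each other and with astrocytes. The striatum contains bundles of myelinated fibres. Whole tissue was sequenced, so fewer oligodendrocytes and less RNA per oligodendrocyte cannot be told apart in these libraries. By immunostaining of P60 striatum, the study reported that counts of OLIG2+ and MYRF+ cells did not differ between the genotypes. Several of the 9 genes are also made outside oligodendrocytes. *Ptgds* is made in leptomeninges and choroid plexus, *Gsn* in cells of vessels and meninges, and *Apod* in astrocytes and fibroblasts.

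The libraries held 15125051 to 16523429 counts. Of 20 genes listed from the deleted segment, 16 had no overlap between the genotypes in FPKM and all 20 had lower values in 16p11.2+/- mice (log2 fold change -1.29 to -0.54), 13 of them with an adjusted p under 0.05 (edgeR). None of the 9 support genes is among these 20. All 17 myelin genes, 10 oligodendrocyte precursor genes and 9 oligodendrocyte transcription factor genes listed were expressed in every mouse. The tissue pieces differed in other cell types. The library WT-1063 had 10434 CPM (counts scaled to library size) summed over 9 choroid plexus markers, of which *Kcnj13* was at 0 in another mouse, against 326 to 1494 in the other WT mice and 312 to 641 in 16p11.2+/- mice. DF-1037 and DF-1062 had 1247 and 883 CPM summed over 9 medium spiny neuron markers, against 3358 to 5668 in the other 6 mice. Summed over 8 thalamus markers, WT-1063 had 1330 CPM against 176 to 207 in the other WT mice, and DF-1018, DF-1037 and DF-1062 had 796, 1342 and 993 CPM against 223 in DF-1059. DF-1018 also had the lowest sum of 7 cortical neuron markers (66.2 CPM, highest mouse 762). The part of these differences in the results below was not tested. WT-1063, DF-1037 and DF-1062 are called the 3 pieces that stood apart, and results that rest on them are given with and without them, with DF-1018 kept in both.

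The mean expression of all 9 support genes was lower in 16p11.2+/- than in WT striatum. The genes were chosen with earlier results of these data known, so this shared direction is a description and not a test. In edgeR the log2 fold changes ran from -0.46 for *Gsn* to -0.09 for *Klk6*, with a median of -0.27, while the median of all genes tested was -0.01 and 51.8% of them had a negative value. None of the 9 passed the threshold of 0.05 after adjustment, which 0.109% of the genes tested did in either direction and 0.0929% did as lower in 16p11.2+/- mice. The adjusted p was 0.859 for 8 genes and 0.954 for *Klk6* (edgeR, Benjamini-Hochberg). Only *Gsn* had an unadjusted p under 0.05, as did 4.32% of all genes tested, 2.37% as lower in 16p11.2+/- mice. DESeq2 and limma-voom likewise gave an unadjusted p under 0.05 for 1 of the 9. The estimate of *Klk6* lay within 1 standard error (SE) of 0 (-0.09, SE 0.32). In FPKM (fragments scaled to gene length and library size), all 4 16p11.2+/- mice were below every WT mouse for 1 of the 9 genes, which held for 1.62% of genes tested. Counting both directions, 2.83% of genes had no overlap, and the same 2.83% had an exact permutation p under 0.05. At least 3 of the 4 were below every WT mouse for 4 of the 9, which held for 7.11%. The edgeR p-values set the genotype difference against the spread between mice. With 1 library per mouse, that spread includes differences between the tissue pieces.

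**Figure D1:**
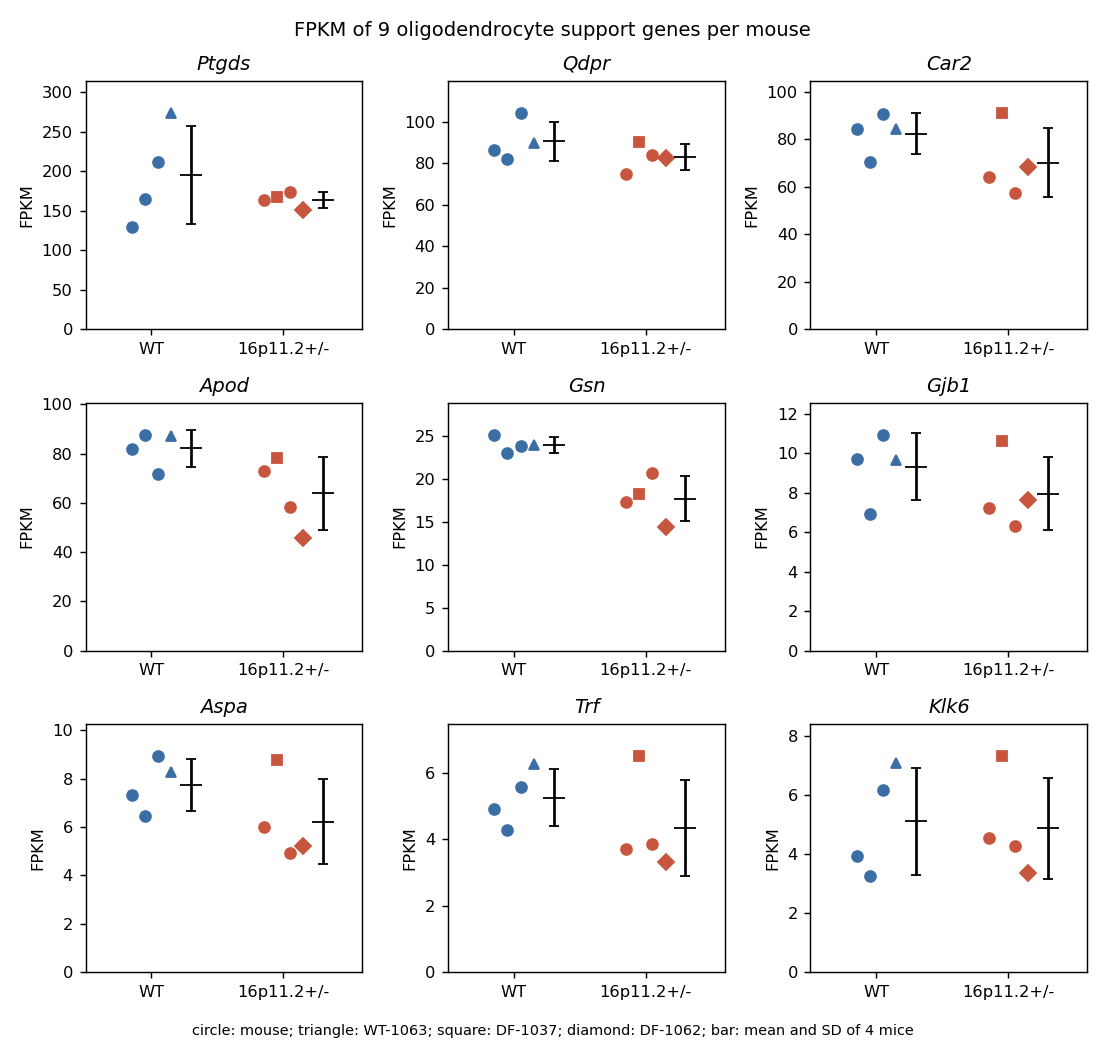
FPKM of each gene in each mouse (vertical axes start at 0; blue WT, red 16p11.2+/-; triangle WT-1063, square DF-1037, diamond DF-1062), with the mean and SD of 4 mice in black. The groups do not overlap for *Gsn*, and the square DF-1037 is the highest 16p11.2+/- mouse for 7 of the 9 genes.

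The support genes differed widely in their level. Per length, *Ptgds* was the highest in WT mice with 195 ± 62.0 FPKM (SD, n = 4), and it did not overlap with the next gene in either genotype. *Qdpr* (90.7 ± 9.53), *Car2* (82.4 ± 8.53) and *Apod* (82.1 ± 7.37) followed, and neighbours among these 3 overlapped in their ranges. *Gsn* (23.9 ± 0.888) stood apart from the genes above and below it. *Gjb1* (9.31 ± 1.70) overlapped with *Aspa* (7.74 ± 1.07), and *Trf* (5.25 ± 0.861) with *Klk6* (5.12 ± 1.81). *Aspa* lay above *Trf* in each of the 8 mice, and the ranges of these genes overlapped in 16p11.2+/- but not in WT mice. For comparison, the myelin gene *Mbp*, which encodes a main protein of the sheath, had 541 ± 33.4 FPKM in WT mice. Summed over the 9 genes, the CPM was 955 to 1211 in WT and 741 to 1020 in 16p11.2+/- mice, so the ranges overlapped. Those of the 17 myelin genes, 12948 to 15267 and 7772 to 11362, did not.

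*Gsn* encodes gelsolin, which severs and caps actin filaments and is abundant in oligodendrocytes as they remodel their processes. The gene lies on chromosome 2 (chr2:35256380-35307892, plus strand, GRCm38). Its FPKM was 25.1, 22.9, 23.8 and 23.9 in WT-1015, WT-1041, WT-1061 and WT-1063, and 17.3, 18.3, 20.7 and 14.4 in DF-1018, DF-1037, DF-1059 and DF-1062. Every 16p11.2+/- mouse was below every WT mouse, and the WT mice differed little among themselves. The means were 23.9 ± 0.888 and 17.7 ± 2.61 FPKM (SD, n = 4), an edgeR log2 fold change of -0.46 (SE 0.12, unadjusted p = 0.00446, adjusted p = 0.859). The exact two-sided permutation test over 70 assignments of the mice gave p = 0.0286, the smallest it can give. By its edgeR p, *Gsn* ranked 52 among the genes tested. The estimate was -0.47 without DF-1037, -0.34 without DF-1062 and -0.33 without all 3 pieces that stood apart. Summed over 8 mural cell markers, all detected in every mouse, the CPM was 243 to 318 in WT and 220 to 315 in 16p11.2+/- mice, and the part of such cells in the *Gsn* values was not tested. Of 13 genes tested from a list of 15 other genes of the gelsolin family and of actin turnover, 0 had an unadjusted p under 0.05 in edgeR. *Svil*, a gelsolin relative that links actin to membranes, came nearest with a log2 fold change of -0.36 (SE 0.16, unadjusted p = 0.0506). *Flii*, another gelsolin family member, had 0.30 (SE 0.17), and *Tmsb4x*, whose product binds actin monomers, had -0.24 (SE 0.16).

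*Apod* encodes apolipoprotein D, a secreted lipocalin that binds arachidonic acid and other lipids. It lies on chromosome 16 (chr16:31296192-31314808, minus strand). The WT mice had 81.9, 87.6, 71.8 and 87.2 FPKM, and the 16p11.2+/- mice 73.0, 78.3, 58.5 and 45.7, in the order used for *Gsn*. DF-1059 and DF-1062 were below every WT mouse, and DF-1018 and DF-1037 lay within the WT range. The means were 82.1 ± 7.37 and 63.9 ± 14.7 FPKM (SD, n = 4; log2 fold change -0.38, SE 0.18, edgeR unadjusted p = 0.0642). The exact two-sided permutation test gave p = 0.0857. Without DF-1062 the estimate was -0.21, and without DF-1037 it was -0.49 (unadjusted p = 0.0244). The CPM summed over 8 astrocyte markers overlapped between the genotypes, with 3484 to 4537 in WT and 2944 to 4509 in 16p11.2+/- mice. Of 14 other lipid carrier genes listed, 12 were tested, and 1 had an unadjusted p under 0.05 in each direction in edgeR. *Lrp1*, an endocytic receptor for apolipoprotein E, had a log2 fold change of 0.25 (SE 0.10, unadjusted p = 0.0295). The gene that was lower at this level is not reported here. *Rbp4*, a retinol carrier, did not reach an unadjusted p under 0.05 and had -0.67 (SE 0.33). *Apoe*, the main lipid carrier of astrocytes, had 426 ± 67.9 and 428 ± 42.3 FPKM (log2 fold change -0.02, SE 0.12).

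*Ptgds* encodes prostaglandin D2 synthase, a lipocalin that also carries small lipids in cerebrospinal fluid. The gene lies on chromosome 2 (chr2:25466709-25470046, minus strand). WT-1015, WT-1041, WT-1061 and WT-1063 had 130, 165, 211 and 273 FPKM, while the 16p11.2+/- mice lay close together at 163, 167, 174 and 151. All 16p11.2+/- values lay inside the WT range. The means were 195 ± 62.0 and 164 ± 9.73 FPKM (log2 fold change -0.27, SE 0.20, edgeR unadjusted p = 0.221; exact permutation p = 0.371). The highest value came from WT-1063, the piece with the most choroid plexus RNA, and without it the estimate was -0.07. WT-1015 had the next highest choroid plexus sum, 1494 CPM, and the lowest *Ptgds* of all mice, and without WT-1015 the estimate was -0.41 (edgeR unadjusted p = 0.0421). Without the 3 pieces that stood apart it was 0.0012. Summed over 10 leptomeningeal fibroblast markers, with *Slc47a1* at 0 in a mouse, WT-1063 had 81.5 CPM and the other 7 mice 23.2 to 38.8 CPM. Of 8 genes tested from 10 listed for prostaglandin D2 synthesis, transport and reception, 0 had an unadjusted p under 0.05 in edgeR. *Hpgds*, the other prostaglandin D synthase, had a log2 fold change of -0.09 (SE 0.22). *Pla2g4a*, which frees arachidonic acid from membranes, had -0.52 (SE 0.26), and *Hpgd*, which breaks prostaglandins down, had -0.32 (SE 0.21). The transporter *Slco2a1* had 1.23 (SE 0.90) at 0.374 FPKM or less in both group means.

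**Figure D2:**
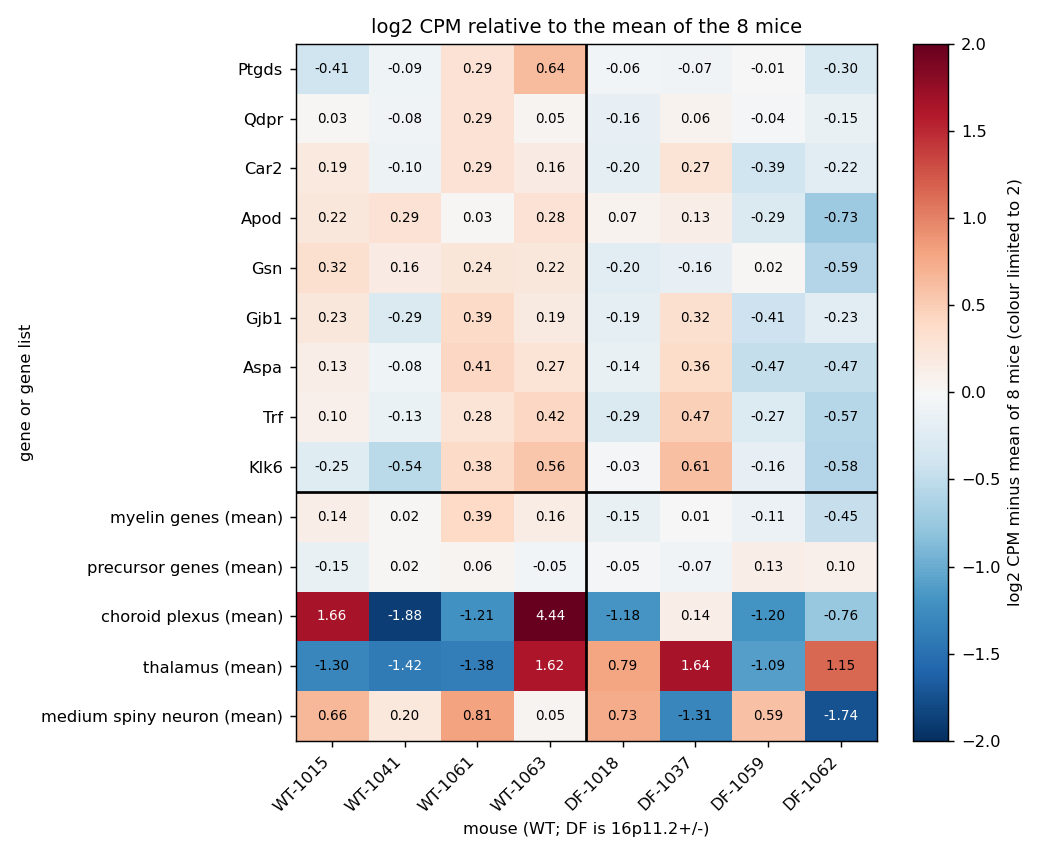
log2 CPM of each support gene in each mouse, relative to the mean of the 8 mice, above the mean log2 CPM of 5 gene lists (colour: log2 CPM difference, limited to 2; the printed numbers are not limited). DF-1037 is above the mean for *Trf* (0.47), *Aspa* (0.36) and *Klk6* (0.61), and DF-1062 is below it for all 9 genes.

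*Trf* encodes transferrin, the iron carrier that oligodendrocytes themselves make. It lies on chromosome 9 (chr9:103204001-103230444, minus strand). Of its exon sequence 63.5% is shared on the same strand with another annotated gene, *Gm20425*, which received 0 or 1 count per mouse, so its level is uncertain. The FPKM was 4.90, 4.27, 5.59 and 6.26 in WT mice and 3.72, 6.50, 3.87 and 3.32 in 16p11.2+/- mice. DF-1037 had the highest value of all 8 mice, and the other 3 were below every WT mouse. The means were 5.25 ± 0.861 and 4.35 ± 1.45 FPKM (log2 fold change -0.29, SE 0.23, edgeR unadjusted p = 0.239; exact permutation p = 0.286). Without DF-1037 the estimate was -0.55 (edgeR unadjusted p = 0.0091), and without DF-1062 it was -0.15 (edgeR unadjusted p = 0.517). Of 21 other iron genes listed, 20 were tested, and 2 had an unadjusted p under 0.05 in edgeR, both lower in 16p11.2+/- mice, with a list median of 0.01. *Fth1*, the heavy subunit of the iron store ferritin, had 1739 ± 147 FPKM in WT and 1357 ± 239 in 16p11.2+/- mice, with no overlap between groups, on a gene length of 866 bases against 3469 bases of annotated exons (log2 fold change -0.37, SE 0.16, unadjusted p = 0.0402). *Hfe*, which modulates iron uptake, had 1.77 ± 0.745 and 0.916 ± 0.202 FPKM (log2 fold change -0.96, SE 0.32, unadjusted p = 0.0146). *Tfrc*, the transferrin receptor, had 17.1 ± 0.786 and 18.7 ± 2.33 FPKM (log2 fold change 0.11, SE 0.09). The adjusted p was 0.859 for these 3 iron genes in edgeR.

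*Car2* encodes carbonic anhydrase II, a cytosolic enzyme long used as an oligodendrocyte marker. It lies on chromosome 3 (chr3:14886273-14900770, plus strand). WT mice had 84.3, 70.4, 90.5 and 84.5 FPKM, and 16p11.2+/- mice 64.0, 91.0, 57.3 and 68.3. As for *Trf*, DF-1037 was above all WT mice and the other 3 were below all of them. The means were 82.4 ± 8.53 and 70.1 ± 14.6 FPKM (log2 fold change -0.25, SE 0.15, edgeR unadjusted p = 0.125; exact permutation p = 0.257). Without DF-1037 the estimate was -0.41 (edgeR unadjusted p = 0.0059), and without DF-1059 it was -0.16 (edgeR unadjusted p = 0.318). Of 18 other carbonic anhydrase and bicarbonate transport genes listed, 14 were tested, and 1 had an unadjusted p under 0.05 in each direction in edgeR. *Car12* had a log2 fold change of -1.19 (SE 0.49, unadjusted p = 0.0381), with 9.52 ± 5.77 FPKM in WT and 4.18 ± 1.83 in 16p11.2+/- mice. *Car8* had 0.43 (SE 0.18, unadjusted p = 0.0458), and the anion exchanger gene *Slc4a2* had -0.65 (SE 0.38). The part of the choroid plexus RNA of WT-1063 in the *Car12* and *Slc4a2* values was not tested. *Car4*, an enzyme tethered to the outer membrane, had 0.37 (SE 0.53).

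*Aspa* encodes aspartoacylase, whose loss causes Canavan disease, a leukodystrophy. It lies on chromosome 11 (chr11:73304992-73329596, minus strand). WT mice had 7.34, 6.46, 8.92 and 8.26 FPKM, and 16p11.2+/- mice 6.01, 8.75, 4.91 and 5.19. DF-1037 lay inside the WT range, and the other 3 were below it. The means were 7.74 ± 1.07 and 6.22 ± 1.76 FPKM (log2 fold change -0.34, SE 0.20, edgeR unadjusted p = 0.123; exact permutation p = 0.200). Without DF-1037 the estimate was -0.55 (edgeR unadjusted p = 0.0046), and without DF-1062 it was -0.23 (edgeR unadjusted p = 0.291). Without the 3 pieces that stood apart it was -0.47 (edgeR unadjusted p = 0.0240). Of 14 other genes of N-acetylaspartate and acetate metabolism listed, 14 were tested, and 0 had an unadjusted p under 0.05 in edgeR, with a median of 0.12. *Nat8l*, the neuronal enzyme that makes N-acetylaspartate, had 33.8 ± 4.40 and 40.4 ± 7.70 FPKM (log2 fold change 0.24, SE 0.15). *Rimklb*, which makes a dipeptide of N-acetylaspartate and glutamate, had 0.39 (SE 0.23), and *Acss2*, which activates acetate, had 0.18 (SE 0.14).

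*Gjb1* encodes connexin 32, a gap junction protein of oligodendrocytes and Schwann cells, mutated in an inherited neuropathy. It lies on the X chromosome (chrX:101376378-101385629, plus strand). WT mice had 9.72, 6.92, 10.9 and 9.68 FPKM, and 16p11.2+/- mice 7.23, 10.6, 6.34 and 7.62. Only DF-1059 was below every WT mouse, and WT-1041 was lower than 3 of the 4 16p11.2+/- mice. The means were 9.31 ± 1.70 and 7.95 ± 1.85 FPKM (log2 fold change -0.25, SE 0.20, edgeR unadjusted p = 0.238; exact permutation p = 0.371). Without DF-1037 the estimate was -0.42 (edgeR unadjusted p = 0.0414), and without DF-1059 it was -0.15 (edgeR unadjusted p = 0.493). Of 15 other connexin and pannexin genes listed, 12 were tested, and 1, *Gja5*, had an unadjusted p under 0.05 in edgeR (log2 fold change -0.96, SE 0.31, unadjusted p = 0.0130). Its level was 0.278 ± 0.0697 and 0.144 ± 0.0535 FPKM. *Gjc3*, another oligodendrocyte connexin gene, had a log2 fold change of -0.22 (SE 0.11). The astrocyte connexin gene *Gja1* had 0.04 (SE 0.10), and *Panx2*, a pannexin, had 0.37 (SE 0.20).

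*Qdpr* encodes dihydropteridine reductase, which regenerates tetrahydrobiopterin, the cofactor of aromatic amino acid hydroxylases. It lies on chromosome 5 (chr5:45434021-45450236, minus strand), and 18.6% of its exon sequence lies opposite an antisense gene that had 0 counts. WT mice had 86.3, 82.2, 104 and 90.1 FPKM, and 16p11.2+/- mice 75.1, 90.3, 84.1 and 82.5. The ranges overlapped, with DF-1018 alone below every WT mouse. The means were 90.7 ± 9.53 and 83.0 ± 6.27 FPKM (log2 fold change -0.15, SE 0.10, edgeR unadjusted p = 0.157; exact permutation p = 0.286). Of 13 other tetrahydrobiopterin genes listed, 10 were tested, and 0 had an unadjusted p under 0.05 in edgeR, with a median of 0.16. *Gch1*, the entry enzyme of the synthesis, had only 0.181 ± 0.0242 and 0.246 ± 0.0749 FPKM (log2 fold change 0.42, SE 0.26). *Pts*, a later enzyme of the synthesis, had -0.17 (SE 0.10), and *Pcbd2* had 0.72 (SE 0.37).

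*Klk6* encodes a secreted serine protease of the kallikrein family that is enriched in oligodendrocytes. It lies on chromosome 7 (chr7:43824499-43832030, plus strand). With 76 to 174 counts per mouse it was the least counted of the 9 genes, and its spread was wide. WT mice had 3.93, 3.28, 6.17 and 7.11 FPKM, and 16p11.2+/- mice 4.55, 7.32, 4.27 and 3.36. DF-1037 was the highest of all 8 mice, and no 16p11.2+/- mouse was below every WT mouse. The means were 5.12 ± 1.81 and 4.88 ± 1.71 FPKM (log2 fold change -0.09, SE 0.32, edgeR unadjusted p = 0.787; exact permutation p = 0.943). A difference of this size was not detectable at this depth and spread, and the estimate was above 0 without WT-1061, WT-1063 or DF-1062 (0.02, 0.10 and 0.08). Of 18 other genes listed for kallikreins, protease-activated receptors and serpins, 6 were tested, and 0 had an unadjusted p under 0.05 in edgeR. The neuronal kallikrein gene *Klk8* had 5 to 21 counts per mouse and a log2 fold change of 0.03 (SE 0.44). The thrombin receptor gene *F2r* had 0.62 (SE 0.57), and the protease inhibitor genes *Serpina3n* and *Serpinb6a* had 0.43 (SE 0.26) and -0.12 (SE 0.10).

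**Figure D3:**
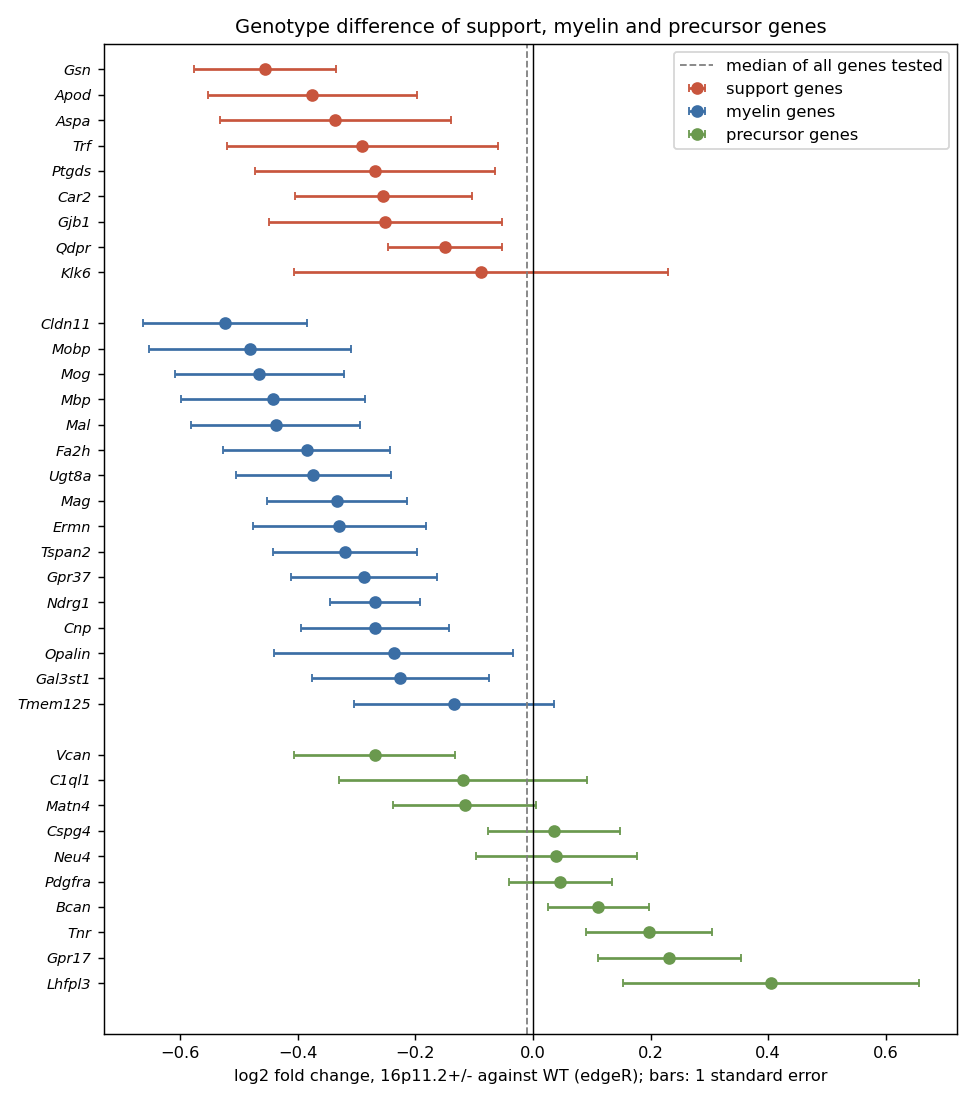
edgeR log2 fold change of 16p11.2+/- against WT (points) with 1 SE (bars) for the 9 support genes, 16 of the 17 myelin genes and 10 precursor genes, and the median of all genes tested (dashed). All the support genes and myelin genes shown lie below 0, and 3 of the 10 precursor genes do.

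The support genes were then set beside other genes of the lineage. The log2 fold changes of all 17 myelin genes were negative (median -0.33), and 12 had an unadjusted p under 0.05 in edgeR, while 0 passed the adjusted threshold. Several of these myelin genes were named by the study from these samples, so their direction is not independent evidence. The tight junction gene *Cldn11* had the smallest p among them (log2 fold change -0.52, SE 0.14, unadjusted p = 0.0046), followed by *Ndrg1* (-0.27, SE 0.08) and *Mog* (-0.47, SE 0.14). Of the 9 transcription factor genes 8 were negative, and *Myrf*, the factor that drives myelin genes, had -0.20 (SE 0.09, unadjusted p = 0.0472). The 10 precursor genes had a median of 0.04, and 0 had an unadjusted p under 0.05. The 3 smallest p-values among them belonged to *Vcan* (-0.27, SE 0.14), *Gpr17* (0.23, SE 0.12) and *Tnr* (0.20, SE 0.11). Over all 9 role lists, 7 of 109 genes tested had an unadjusted p under 0.05 in edgeR, 5 lower and 2 higher, and 0 passed the adjusted threshold. Their median log2 fold change was 0.01.

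To see whether a support gene differed by more or less than myelin genes in the same mouse, the mean log2 CPM of the 17 myelin genes was subtracted from its log2 CPM. On this scale 89.3% of all genes tested were higher in 16p11.2+/- mice, and 17.5% had an exact permutation p under 0.05. The reference itself was lower in 16p11.2+/- mice. Only *Qdpr* among the 9 genes reached this level. Its values were -0.314, -0.303, -0.304 and -0.304 in WT mice, a spread of 0.005 (SD), and -0.222, -0.145, -0.134 and 0.099 in 16p11.2+/- mice. All 4 16p11.2+/- mice were above every WT mouse, with a difference of 0.21 and an exact two-sided permutation p of 0.0286. The highest value was that of DF-1062, and the difference was 0.14 without this mouse and 0.13 without the 3 pieces that stood apart, where 3 against 2 mice cannot give an exact p below 0.1. The other 8 genes had differences between -0.12 (*Gsn*) and 0.27 (*Klk6*), with exact permutation p of 0.314 or more and overlapping groups. For *Gsn* the 16p11.2+/- values were -1.518, -1.629, -1.332 and -1.594 against -1.274, -1.323, -1.612 and -1.395 in WT mice, so that the separation in FPKM was not present relative to myelin genes. For *Aspa* (-0.01), *Trf* (0.03), *Apod* (-0.06), *Car2* (0.083) and *Gjb1* (0.098) the differences were within 0.1 of 0. Relative to the 9 transcription factor genes instead, *Qdpr* differed by -0.03 (exact permutation p = 0.629) and all 9 differences were negative but for *Klk6*.

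**Figure D4:**
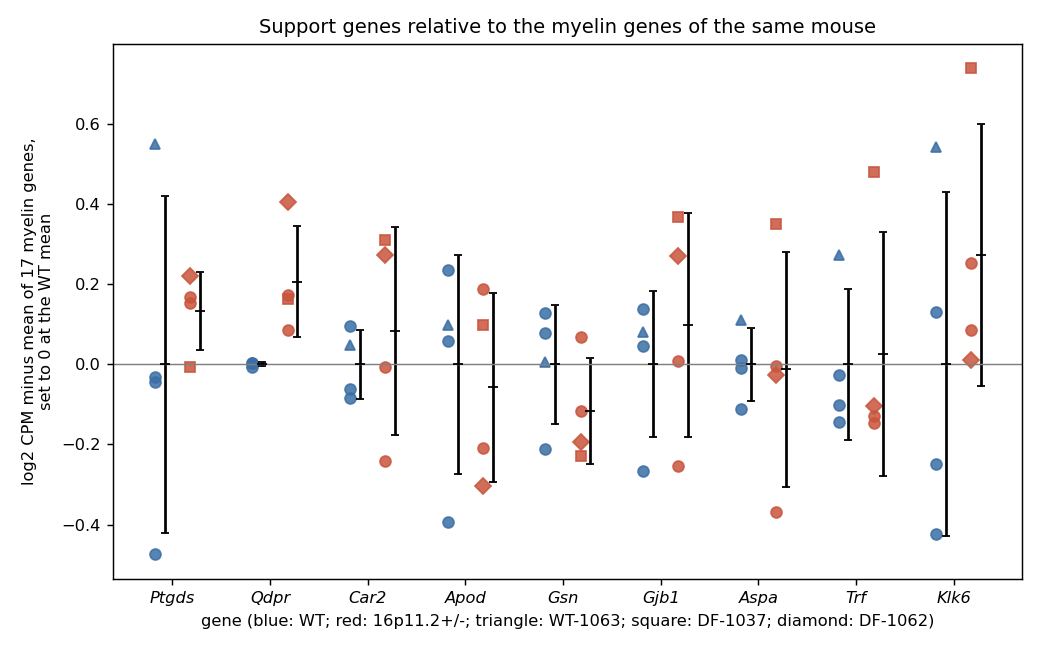
log2 CPM of each support gene minus the mean log2 CPM of 17 myelin genes in the same mouse, shifted so that the WT mean is 0 (blue WT, red 16p11.2+/-; triangle WT-1063, square DF-1037, diamond DF-1062; black, mean and SD of 4 mice). For *Qdpr* the WT mice lie together and all 16p11.2+/- mice lie above them, whereas the other genes overlap.

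The individual mice moved through several support genes together. WT-1041 was the lowest WT mouse for 7 of the 9 genes, and WT-1061 was the highest for 4 and WT-1063 for 3. DF-1037 was the highest 16p11.2+/- mouse for 7 genes, and DF-1062 was the lowest for 5 and DF-1059 for 3. DF-1037 and DF-1062, which shared the low medium spiny neuron values, were thus at opposite ends of their group. Without DF-1037, 6 of the 9 genes had an unadjusted edgeR p under 0.05 (*Trf*, *Car2*, *Apod*, *Aspa*, *Gsn* and *Gjb1*), as did 5.69% of the genes tested in those mice, and none passed the adjusted threshold. DF-1037 was the highest 16p11.2+/- mouse for all of these but *Gsn*. Leaving out the highest mouse lowers the mean of its group, so these p-values, also those given per gene above, are no separate test. The share over all genes was not selected in this way. With any other single mouse left out, 1 or 2 of the 9 had an unadjusted edgeR p under 0.05. Of all genes tested, 2.47% to 8.21% did. Without all 3 pieces that stood apart, 4 of the 9 did (*Trf*, *Car2*, *Aspa* and *Gsn*), beside 8.49% of the genes tested. For the genes not given above, the edgeR estimates without these pieces were -0.37 (*Trf*), -0.43 (*Car2*), -0.44 (*Gjb1*), -0.28 (*Apod*), -0.19 (*Qdpr*) and -0.02 (*Klk6*). With the thalamus marker score as a covariate, the estimates of *Trf* and *Aspa* were -0.46 and -0.49 (edgeR unadjusted p = 0.0911 and 0.0507). With the choroid plexus score they were smaller, -0.17 and -0.28 (edgeR unadjusted p = 0.477 and 0.227), and *Ptgds* had -0.16 (edgeR unadjusted p = 0.476).

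**Figure D5:**
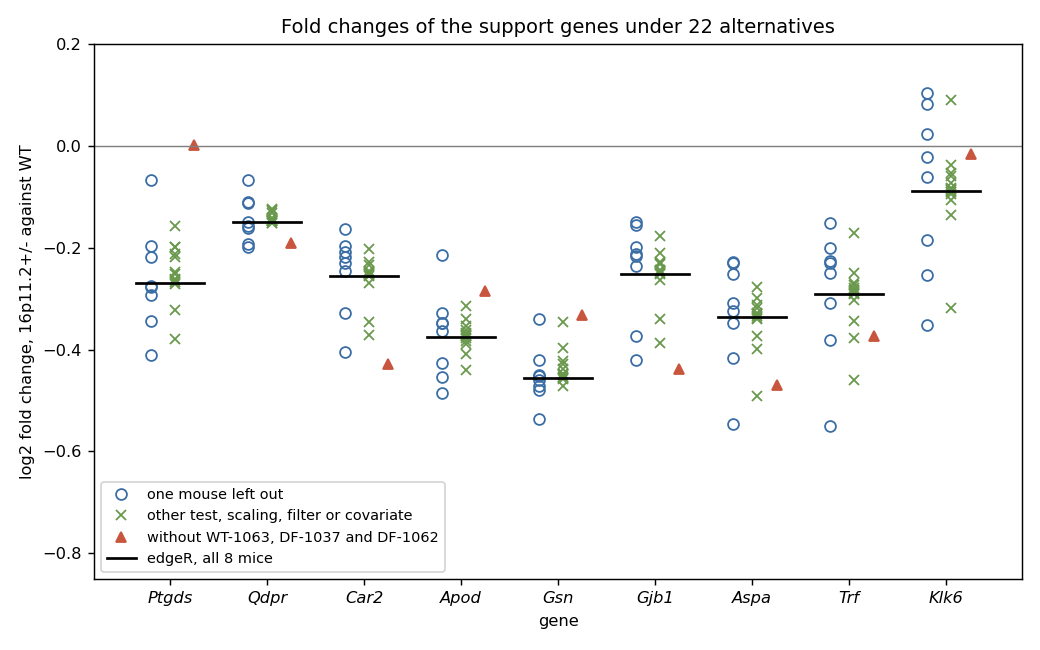
log2 fold change of each support gene in edgeR with all 8 mice (black line) and under 22 alternatives: with a mouse left out (circles), another test, scaling, filter or covariate (crosses), and without 3 pieces (triangles). *Gsn* stays between -0.54 and -0.33, while *Ptgds* and *Klk6* reach 0 or above.

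Profiles over the 8 mice were compared as log2 CPM after subtraction of each group's mean, by the root mean square (RMS) difference. A gene with the same ups and downs has a value near 0, and so has any pair of genes that vary little. The RMS around the group means was 0.115 for *Qdpr* and 0.438 for *Klk6*, so distances are not comparable between such genes. Among the 9 genes the closest pair was *Car2* and *Gjb1* (RMS difference 0.080), followed by *Car2* and *Aspa* (0.107), *Aspa* and *Gjb1* (0.112), and *Trf* and *Aspa* (0.124). *Gsn* and *Klk6* were the farthest apart (0.403). Among all genes of similar level, the nearest to *Aspa* was *Tmem88b* (0.061) and to *Car2* was *Fnbp1* (0.070). The long noncoding gene *A130014A01Rik* was nearest to *Gjb1* (0.087). *Ptgds* was nearest to the potassium channel gene *Kcnj10* (0.094). *Gsn* was nearest to *Foxo4* (0.054), *Qdpr* to *Gna12* (0.031), *Trf* to *Adrb1* (0.062), *Apod* to *St3gal5* (0.104) and *Klk6* to *Myadml2* (0.12). These likenesses rest on 8 mice and on the same libraries, and pieces with more of another tissue enter all of them.

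Sox10 is a transcription factor of the oligodendrocyte lineage that is known to act at a promoter of *Gjb1*, so the 250 bases before the annotated starts were searched for the letters ACAAAG or ACAATG, which belong to the kind of site that SOX proteins bind, on either strand (CTTTGT or CATTGT on the other). RefSeq (GRCm38.p6) windows were found for 7 of the 9 genes, 13 windows in all, and none for *Trf* and *Car2*. The letters stood in 4 of the 13 windows (30.8%), 1 each of *Apod* and *Klk6* and 2 of *Gjb1*, and in 25.2% of all 32851 windows, so the share was near that of all promoters. A match is a description of the sequence and not a site of binding. *Sox10* itself had 8.41 to 16.0 FPKM in 16p11.2+/- mice and 11.1 to 14.9 in WT mice (log2 fold change -0.22, SE 0.20, edgeR unadjusted p = 0.293). The window of *Gjb1* at its most downstream start (chrX:101383482-101383731, plus strand), inside the annotated gene, held a match on each strand close together. The windows of *Klk6* (chr7:43824294-43824543, plus strand) and *Apod* (chr16:31314809-31315058, minus strand) held matches on the strand of the gene only. These 3 windows are shown in the direction of transcription, with the matches in capitals.
Gjb1: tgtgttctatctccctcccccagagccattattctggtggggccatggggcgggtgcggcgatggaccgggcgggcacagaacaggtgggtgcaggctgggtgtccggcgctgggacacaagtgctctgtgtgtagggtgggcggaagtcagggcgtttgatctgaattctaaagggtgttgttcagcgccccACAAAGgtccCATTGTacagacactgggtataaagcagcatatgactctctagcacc
Klk6: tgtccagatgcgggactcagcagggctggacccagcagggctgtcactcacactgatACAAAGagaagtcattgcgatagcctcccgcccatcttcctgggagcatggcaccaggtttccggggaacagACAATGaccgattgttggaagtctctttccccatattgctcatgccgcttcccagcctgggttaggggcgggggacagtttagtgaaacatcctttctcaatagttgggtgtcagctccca
Apod: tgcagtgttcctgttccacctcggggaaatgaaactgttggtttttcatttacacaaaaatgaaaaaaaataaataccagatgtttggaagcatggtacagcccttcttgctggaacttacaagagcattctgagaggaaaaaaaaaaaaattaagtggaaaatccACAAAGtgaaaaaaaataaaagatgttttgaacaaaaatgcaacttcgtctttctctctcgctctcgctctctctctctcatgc
The 3 genes with a match had log2 fold changes of -0.25, -0.09 and -0.38, within the span of the other 6 genes for *Gjb1* and *Apod* and above it for *Klk6*. The letters TATAAA stood in 2 of the 13 windows, 1 of *Aspa* and the *Gjb1* window above, and in 12.4% of all windows.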

How the data were processed

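RNA libraries from the striatum of 8 mice, 4 per genotype, were analysed. The authors trimmed the reads, mapped them with Hisat2 and deposited the raw counts per gene from Htseq-count. The authors also deposited FPKM, which equals the count scaled to a fixed gene length and to the total of the library. The submitters' processing notes name Bowtie 0.12.2, mm8 and mm9 without a role, while the gene lengths behind the FPKM of the 9 genes equal exon lengths in GENCODE M21 (GRCm38), used here for positions. The strand setting is not given in the sources used here. The authors' DESeq2 comparison and a summary of FPKM in bins were not used.

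The quasi-likelihood test of edgeR 4.0.16 (R 4.3.3) was run on the counts of all genes at once, after filterByExpr (minimum count 10, minimum total 15) and TMM scaling, with a Benjamini-Hochberg threshold of 0.05. SE is the log2 fold change over the root of F. FPKM was compared by exact two-sided permutation over 70 assignments, log2 CPM used a prior count of 2, and profiles were compared with genes within 2 log2 CPM of each member. The code was tested on simulated data, where 88.3% of genes changed by 2 on the log2 scale and 46.9% of those changed by 1 were called among 17950 genes. Alternatives were DESeq2 1.42.0, limma 3.58.1 (voom, and log2 FPKM plus 1 or 0.1), scaling by RLE or by library totals, other filters, marker scores as covariates, other reference genes and each mouse left out. The 3 pieces left out together and the medium spiny neuron covariate were added after seeing the data.

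The 9 genes and all lists were chosen with earlier results of these data known. Named were the 9 genes, at most 3 genes of smallest edgeR p per list, relatives by family, and the genes most alike in profile. Of the latter, up to 3 per gene, those nearest were printed. *Sox10* was named for the promoter search. Some genes that the rule covers are not reported here.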

Additional observations from a re-analysis of the deposited data

Results flagged for a closer look

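Of 42 groups of 4 values examined, 1 held a mouse far from the others by Dixon's criterion, which chance gives in about 1 in 20 groups. The thalamus marker score (mean log2 CPM) was 7.01 in WT-1063, whereas the remaining WT mice had 3.97 to 4.08, and the gap took 0.962 of the range of the group. Its part in the values of the 9 support genes was not tested beyond the alternatives, and WT-1063 was the highest WT mouse for *Ptgds*, *Trf* and *Klk6*. Leaving it out moved the log2 fold change of *Ptgds* from -0.27 to -0.07, of *Trf* from -0.29 to -0.20 and of *Klk6* from -0.09 to 0.10.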

How the results depend on the processing

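Under 22 alternatives the number of support genes past the adjusted edgeR threshold, and that of genes in the role lists, was 0, the number with a negative log2 fold change was 8 or 9, and their median stayed between -0.42 and -0.18. *Gsn* kept an unadjusted p under 0.05 in all 22 (0.0014 to 0.0149). *Klk6* was positive with the choroid plexus covariate (0.0907) and spanned -0.35 to 0.10 when single mice were left out, and *Ptgds* was 0.0012 without the 3 pieces that stood apart. The number of support genes with an exact permutation p under 0.05 was 1 in FPKM and 1 relative to myelin genes, and each was 0 to 1 with a mouse left out. With transcription factors as the reference it was 0, and the differences of *Trf* (-0.21), *Car2* (-0.15), *Ptgds* (-0.10), *Qdpr* (-0.026) and *Gjb1* (-0.13) turned negative. With 5 myelin genes in place of 17 as the reference *Aspa* turned to 0.0257. Without the 3 pieces *Qdpr* was 0.13, and *Trf* (-0.047), *Car2* (-0.11), *Apod* (0.0222) and *Gjb1* (-0.10) changed sign. With a mouse left out, the differences relative to myelin genes ranged from -0.13 to 0.12 for *Trf*, from -0.19 to 0.0254 for *Apod*, from -0.13 to 0.11 for *Aspa* and from -0.0252 to 0.32 for *Ptgds*. The cause was not tested. Over all genes, 20 passed the adjusted threshold in edgeR, 8 to 18 with a mouse left out and 13 with the thalamus covariate. An unadjusted p under 0.05 was reached by 790, by 1364 with no filter, by 1230 with the choroid plexus covariate and by 461 to 1530 with a mouse left out. The labels give no pairing of the mice, so no paired analysis was made.

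With 4 mice per genotype the exact test cannot give a p below 0.0286. The log2 fold change of *Klk6* (-0.09) was smaller in size than its SE (0.32). That of *Ptgds* (-0.27) was larger than its SE (0.20). *Klk6* had the fewest counts (76 to 174), and the other 8 genes had 176 or more in every mouse.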
